A study of Mus musculus with 50 samples.

Results

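The peaks described here lie at the zinc finger protein genes of the mouse that carry the symbol Zfp followed by a number. A peak of open chromatin was a member when it overlapped a protein-coding Zfp gene of the GRCm38 annotation or lay within 2 kb of one, so that position alone chose the members. Of the 144465 merged peaks, 1119 met this rule. They comprised 490 peaks at a gene end (the start, the other end, or within 2 kb outside them) and 629 peaks in a gene body. The annotation listed 397 such genes, of which 251 stood in 33 runs of 3 or more Zfp genes within 1 Mb of each other and 146 stood singly. Genes in runs held 384 of the peaks (279 ends and 105 bodies) and single genes held 735 (211 ends and 524 bodies).

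Most Zfp genes encode DNA-binding proteins with tandem C2H2 zinc fingers, each of which contacts a few bases, so that an array of fingers reads a long site. In many of them a KRAB domain recruits the corepressor TRIM28 (KAP1), which brings the H3K9 methyltransferase SETDB1 and HP1 proteins to the bound site, and a number of these proteins silence retroviral elements or protect imprinted marks. KRAB zinc finger genes arose largely by tandem duplication, which is why many of them stand side by side in runs. The symbol also covers the unrelated CCCH type RNA-binding proteins of the Zfp36 family. Some other zinc finger proteins with the symbol act in brain development.

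The assay was ATAC-seq, where Tn5 transposase inserts sequencing adapters into open chromatin. The material was neuronal (NeuN+) nuclei, sorted by flow cytometry from the ventral hippocampus of one side of the brain of male C57BL/6JRj mice. There were 10 groups of 5 mice. At time point 2 (TP2) the mice were 14 weeks old, had been moved to a common test laboratory and had not been tested, and came from rearing facility (RF) 1, 2, 3, 4 or 5. At time point 1 (TP1) the mice were 8 weeks old and were sampled in RF1, RF2, RF3, RF4 or RF5 itself. All mice were wild type and of the same strain, their dams came from 1 breeder, and every label gives the same tissue-freezing condition, hexane. Per the study's methods each mouse of TP2 was a littermate and cage mate of a mouse of TP1, which the fit across TPs did not use. The comparisons ask whether accessibility at these genes differed between mice of different RFs at each TP, and whether the differences between RFs were alike at both TPs. An RF stands here for everything in which the facilities differed, each RF is 1 facility with 5 mice per TP, and the p-values measure the spread between these mice only.

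Total counts per library were 5111223 to 36401717 at TP2 and 33663505 to 77396321 at TP1. Because each TP was sequenced as 1 batch, TP and sequencing batch cannot be told apart, and in bulk nuclei a change in accessibility per nucleus and a change in the mix of nuclei cannot be told apart either. At TP2, the library labelled RF1 replicate 3, which had the lowest total, differed from 4 RF2 libraries by no more than sampling noise, and the libraries labelled RF1 replicate 5, RF2 replicate 5 and RF5 replicate 3 did so among themselves. The main counts at TP2 are therefore also given without RF1 replicates 3 and 5 and RF2 replicate 5. Among replicates of the same group, 20 of 100 pairs differed by no more than sampling noise, 13 of them at TP2 and 7 at TP1, and summing such libraries left 39 samples in place of 50. End peaks of 10 of 10 neuronal marker genes were open (summed 284 to 344 CPM, counts scaled to a common library size, at TP2 and 278 to 400 CPM at TP1). Those of 5 of 6 oligodendrocyte markers summed to 27 to 38.5 and 30.4 to 44.0 CPM, of 5 of 5 astrocyte markers to 31.8 to 41.5 and 28.8 to 41.2 CPM, and of 4 of 5 microglial markers to 25.9 to 34.8 and 27.1 to 38.1 CPM, at TP2 and TP1 in that order. At TP2 the median sum of the neuronal markers was 288 CPM in RF3 and 310 to 337 CPM in the other RFs, and that of the oligodendrocyte markers 29.7 CPM in RF3 and 30.3 to 37.2 CPM in the others. At TP1 they were 284 and 32.5 CPM in RF4, against 339 to 358 and 37.7 to 43.6 CPM in the others. The other cell types did not all follow. Astrocyte medians were lowest in RF4 at both TPs (33.3 and 31.0 CPM), with 34.7 CPM in RF3 at TP2. Microglial medians were lowest in RF5 at TP2 (28.9 CPM, RF3 29.1 CPM) and highest in RF4 at TP1 (34.9 CPM). Of 3 endothelial markers 1 had an end peak, with 0.488 to 1.85 CPM at TP2 and 0.912 to 2.34 CPM at TP1. The part of these in the results was not tested.

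Some promoters of Zfp genes hold the same short stretches of letters. The following 10 stretches of 200 bases directly upstream of a listed start, all under an open peak, are shown because their peaks carry results given further on. They are RefSeq sequences of GRCm38.p6, read 5′ to 3′ on the strand of the gene, with capitals at matches to ACTACAATT (first part of the site read by ZNF143, whose mouse gene is Zfp143), TTCCCAG (second part of that site), CCGGAAG and ACTTCCG (sites of ETS factors), each searched on both strands. AATTGTAGT is ACTACAATT read on the other strand and CTGGGAA is TTCCCAG read on the other strand. Where the letters ctggg stand directly before AATTGTAGT, the parts overlap by 2 bases, and the capitals mark the first part only. The first 4 belong to chromosome 7 runs and the next to a single gene, and all 5 hold ACTACAATT.
Zfp180 (chr7:24081697-24081896, + strand): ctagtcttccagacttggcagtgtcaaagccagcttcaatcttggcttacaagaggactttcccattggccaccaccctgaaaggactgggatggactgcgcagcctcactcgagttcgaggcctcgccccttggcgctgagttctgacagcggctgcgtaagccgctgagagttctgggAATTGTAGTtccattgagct
Zfp108 (chr7:24254594-24254793, + strand): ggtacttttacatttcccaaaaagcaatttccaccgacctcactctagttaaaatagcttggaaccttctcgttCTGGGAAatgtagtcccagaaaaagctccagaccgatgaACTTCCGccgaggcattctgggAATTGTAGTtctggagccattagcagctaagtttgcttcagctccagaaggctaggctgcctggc
Zfp93 (chr7:24270218-24270417, + strand): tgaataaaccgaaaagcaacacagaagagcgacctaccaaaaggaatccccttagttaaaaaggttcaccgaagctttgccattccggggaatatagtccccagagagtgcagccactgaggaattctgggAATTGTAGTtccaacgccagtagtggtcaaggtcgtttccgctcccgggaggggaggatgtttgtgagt
Zfp128 (chr7:12880978-12881177, + strand): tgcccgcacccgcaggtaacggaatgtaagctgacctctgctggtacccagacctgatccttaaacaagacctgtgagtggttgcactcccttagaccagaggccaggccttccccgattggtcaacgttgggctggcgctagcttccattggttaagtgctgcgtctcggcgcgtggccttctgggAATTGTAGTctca
Zfp1 (chr8:111643243-111643442, + strand): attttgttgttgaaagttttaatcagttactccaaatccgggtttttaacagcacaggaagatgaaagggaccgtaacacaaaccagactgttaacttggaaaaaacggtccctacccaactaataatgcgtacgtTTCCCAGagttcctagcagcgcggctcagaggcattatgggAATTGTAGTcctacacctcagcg
Zfp719 (chr7:43579386-43579585, + strand): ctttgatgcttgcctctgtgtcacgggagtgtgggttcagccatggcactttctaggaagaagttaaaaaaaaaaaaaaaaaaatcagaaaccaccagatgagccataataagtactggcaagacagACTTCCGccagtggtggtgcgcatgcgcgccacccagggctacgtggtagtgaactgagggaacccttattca
Zfp526 (chr7:25221225-25221424, + strand): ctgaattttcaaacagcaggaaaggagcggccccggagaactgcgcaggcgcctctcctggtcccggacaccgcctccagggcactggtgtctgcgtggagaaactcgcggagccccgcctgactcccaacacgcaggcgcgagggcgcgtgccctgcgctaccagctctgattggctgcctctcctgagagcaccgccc
Zfp184 (chr13:21944900-21945099, + strand): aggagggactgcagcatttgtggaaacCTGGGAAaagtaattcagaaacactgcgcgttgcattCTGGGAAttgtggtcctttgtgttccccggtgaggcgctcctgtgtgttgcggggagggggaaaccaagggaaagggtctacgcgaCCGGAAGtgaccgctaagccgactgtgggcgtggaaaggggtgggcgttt
Zfp292 (chr4:34882949-34883148, - strand): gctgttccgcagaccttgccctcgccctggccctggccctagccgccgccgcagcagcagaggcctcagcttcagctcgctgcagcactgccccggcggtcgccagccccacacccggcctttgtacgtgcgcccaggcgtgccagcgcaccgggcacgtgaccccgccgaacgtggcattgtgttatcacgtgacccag
Zfp804a (chr2:82053458-82053657, + strand): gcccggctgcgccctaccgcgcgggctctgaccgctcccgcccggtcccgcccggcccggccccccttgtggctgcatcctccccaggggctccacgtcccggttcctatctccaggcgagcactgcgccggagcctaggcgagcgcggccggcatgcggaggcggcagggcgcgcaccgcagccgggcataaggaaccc

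Over the RefSeq promoters of 300 bases (250 before to 50 after the start), ACTACAATT stood in 10 of 241 promoters of Zfp genes in runs (4.15%), in 1 of the 160 promoters of single Zfp genes and in 0.508% of all 21262 protein-coding promoters. TTCCCAG stood in 28.2% of run promoters, 11.9% of single promoters and 11% of all promoters. CCGGAAG was found in 21.6%, 20.6% and 11.6%, and ACTTCCG in 20.7%, 15.6% and 8.39%, of run, single and all promoters in that order. CCAAT, the box bound by NFY, stood in 51.9% of run promoters and 38.2% of all, whereas the SP1 letters GGGCGGG stood in 26.1% of run promoters, 39.4% of single ones and 33.9% of all, and TATAAA in 6.64%, 7.5% and 12.6%. Promoters of genes in runs held a median of 11 CpG and 53.3% G and C, against 17.5 CpG and 59.5% in single Zfp genes and 13 CpG and 56.7% in other genes. The stretches of Zfp292 and Zfp804a were the richest of those shown, with 71.0% and 77.5% G and C and 20 and 26 CpG. A match of letters is a description and shows no binding, and members of a run can share sequence by descent. Zfp genes with a listed strand numbered 331, and the promoters are theirs.

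A gene end peak was present at 344 of the 397 genes and a body peak at 147. No peak lay at 38 genes, of which 31 stood in runs. Of these, 15 belonged to 1 run of 16 genes on chromosome 4 (145510759 to 147849126, Zfp990 to Zfp933), which had 1 end peak. Only reads with a single best place in the genome had been counted, and the part of near-identical copies in these absent peaks, or in the counts of other genes in runs, was not tested. End peaks sat at a listed start in 289 cases and at the other end of the gene in 114, and 87 lay at genes with no listed strand. An end of another gene was shared by 81 of the end peaks.

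Ends of Zfp genes were as open as those of other genes. The median level was 11.6 CPM at ends in runs and 13.4 CPM at ends of single genes, against 11.6 CPM at the 21301 other protein-coding gene ends, with 15.9 CPM at Zfp starts and 6.67 CPM at the other ends. Body peaks had medians of 4.14 CPM in runs and 3.81 CPM in single genes, against 3.96 CPM at other gene bodies. Zfp end peaks were called in all 50 libraries in 62.9% of cases, against 50.7% of other gene ends and 13.2% of Zfp bodies. Genes in runs were short, with a median of 16073 bp and 1.86 body peaks per 100 kb, against 23922 bp and 6.74 per 100 kb in single genes. The most body peaks lay in Zfp385b (41), Zfp423 (32, a factor needed for the cerebellum), Zfp536 (27, expressed in the developing brain), Zfp469 (27) and Zfp609 (21), all single.

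At most ends of Zfp genes accessibility differed between RFs, more often at TP1 than at TP2. RF dependence was called where a test of any difference between the 5 RFs gave a false discovery rate under 0.01. The test was edgeR quasi-likelihood, with the replicate number as a block. At TP2, 460 of the 1119 members depended on RF (41.1%), where 30.8% of all tested peaks did. At TP1, 747 did (66.8%), against 59.1% of all tested peaks. Among gene ends these were 287 (58.6%) at TP2 and 403 (82.2%) at TP1, beside 55.0% and 80.3% of other gene ends, so that the members' share was mostly that of gene ends in general. Ends in runs and single ends had similar shares. In runs 166 (59.5%, 95% Wilson interval 53.6 to 65.1%, which covers counting only) depended on RF at TP2 and 227 (81.4%) at TP1. At single genes 121 (57.3%, 50.6 to 63.8%) did at TP2 and 176 (83.4%) at TP1. Starts were called more often (66.4% at TP2 and 87.2% at TP1) than other ends (43.9% and 71.9%). Starts also held more counts, with medians of 393 at TP2 and 763 at TP1, against 172 and 299 at other ends. The part of counts in these shares, between kinds of end or between TPs, was not tested. Body peaks depended on RF in 173 cases (27.5%) at TP2 and 344 (54.7%) at TP1, with 41.9% and 70.5% in runs and 24.6% and 51.5% in single genes, and 22.9% and 50.6% of other gene bodies. Without the 3 libraries named above, 653 members depended on RF at TP2 (58.4%), against 49.5% of all peaks, with 212 run ends (76.0%) and 147 single ends (69.7%), where 70.9% of other gene ends did. With all libraries, 413 members were RF-dependent at both TPs, 47 at TP2 only by this threshold, 334 at TP1 only and 325 at neither. Of all 144445 peaks tested at both TPs these were 37392, 7121, 48002 and 51930 in that order.

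A difference was called a differentially accessible region (DAR) where the false discovery rate was under 0.01 and the log2 fold change was at least 0.5 in size. At TP2, 242 members (21.6%) were a DAR in at least 1 of the 10 pairs of RFs, against 21% of all peaks, and at TP1 452 (40.4%) were, against 38.6%. At TP2, ends in runs were DARs in 89 cases (31.9%) and single ends in 37 (17.5%), where 21.8% of other gene ends were. At TP1 these were 135 (48.4%) and 96 (45.5%), beside 42.3% of other gene ends. Without RF1 replicates 3 and 5 and RF2 replicate 5, 412 members were DARs between RFs at TP2, and the share over all peaks was then 36.1%. The pairs with the most member DARs at TP2 were RF1 and RF3 (137, or 12.2%, against 10.1% of all peaks) and RF3 and RF4 (136, 12.2% against 11.1%). Those with the fewest were RF1 and RF4 (3, 0.268% against 0.305%) and RF3 and RF5 (3, 0.268% against 0.263%). At TP1 the most were RF1 and RF4 (245, 21.9% against 20.1%), RF1 and RF5 (242, 21.6% against 22.4%) and RF1 and RF3 (204, 18.2% against 20.1%), and the fewest RF2 and RF3 (22, 1.97% against 2.16%). The order of the pairs was thus mostly that of all peaks.

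The direction of the differences was the same over most of the ends in runs. The 279 run ends together took 0.355 to 0.366% of the counts of RF3 libraries at TP2, below every one of the other 20 libraries of that TP (0.388 to 0.447%). RF1 libraries at TP2 lay at 0.445, 0.447, 0.430, 0.446 and 0.394%, with replicate 5 apart, RF4 libraries at 0.428 to 0.439% and RF5 libraries at 0.388 to 0.399%. At TP1, RF5 libraries lay at 0.469 to 0.50%, RF3 lay at 0.456 to 0.471%, RF2 at 0.428 to 0.446%, RF4 at 0.407 to 0.435% and RF1 at 0.366 to 0.454%. RF3 libraries were thus lowest at TP2, and at TP1 they lay above all RF1, RF2 and RF4 libraries and overlapped RF5. The 211 single ends took 0.335 to 0.341% in RF3 libraries at TP2, against 0.353 to 0.376% in the other RFs, and 0.344 to 0.351% in RF4 libraries at TP1, against 0.368 to 0.415% in the others. All other protein-coding gene ends took 31.8 to 32.2% in RF3 libraries at TP2 and 34.0 to 35.5% in the other RFs, so a lower share in RF3 was common to gene ends.

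**Figure D1:**
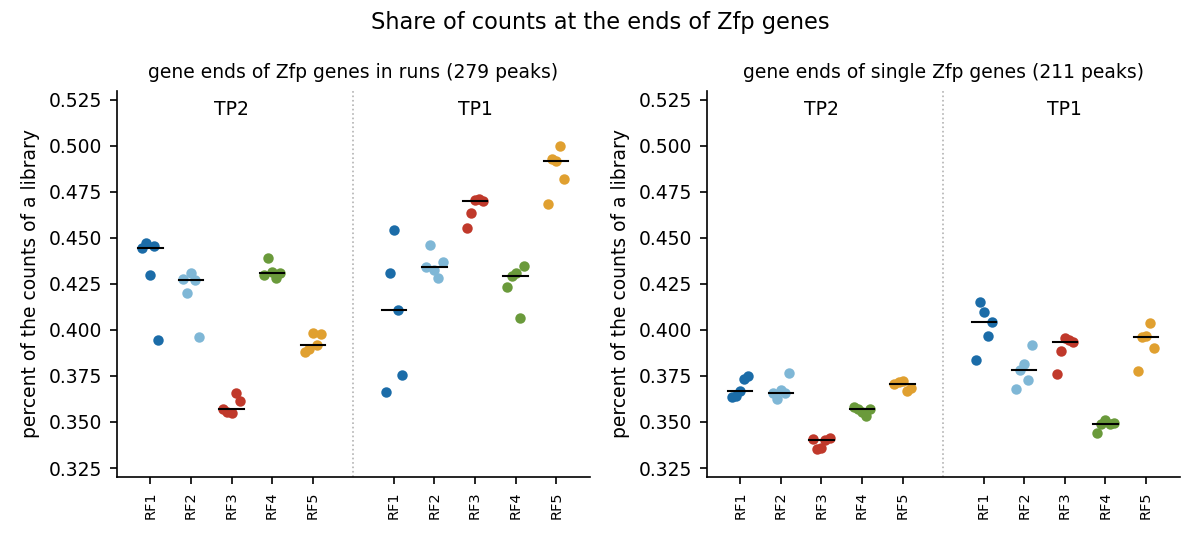
Percent of each library's counts in the 279 end peaks of Zfp genes in runs and in the 211 end peaks of single Zfp genes, by RF at TP2 and at TP1 (points are libraries, bars are medians of 5). At TP2 the RF3 libraries lie below all others in both panels, and at TP1 RF5 has the highest median for runs (its libraries lie at 0.469 to 0.50%) and the RF4 libraries lowest for single genes (0.344 to 0.351%).

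Each RF was then set against the average of the remaining RFs. At TP2, RF3 had 7 members higher and 26 lower, against 2.69% and 0.888% of all peaks, and 18 of the lower ones were gene ends, 15 of them in runs. RF1 had 19 higher and 3 lower (all peaks 1.14% and 1.22%), RF4 had 8 higher and 3 lower (0.541% and 1.32%), RF5 had 0 higher and 15 lower (0.217% and 0.688%), and RF2 had 2 in either direction (0.172%). Once the 3 libraries were left out, RF1 had 91 DARs in either direction at TP2 (all peaks 11.5%), RF2 9 (1.5%), RF3 74 (6.28%), RF4 7 (1.59%) and RF5 37 (2.94%). In RF1, 68 of them were higher and 23 lower, and in RF3 10 were higher and 64 lower. Over all peaks these were 6555 higher and 9987 lower in RF1, and 6544 higher and 2528 lower in RF3. At TP1, RF1 had 38 members higher and 119 lower (all peaks 9.0% and 5.96%), with 37 run ends lower and 1 higher but 12 single ends lower and 16 higher. RF5 had 26 higher and 5 lower (2.28% and 3.0%), with 15 run ends higher and none lower. RF4 had 5 higher and 28 lower (0.598% and 1.88%), among them 6 lower run ends and 16 lower single ends. RF3 had 13 higher and 2 lower (1.23% and 0.763%), and RF2 had 1 (0.24%). Other protein-coding gene ends had 90 higher and 432 lower in RF3 at TP2. At TP1 they had 1601 higher and 1480 lower in RF1, 340 and 99 in RF5, and 98 and 1122 in RF4. Those on chromosome 7 had 0 higher and 368 lower in RF1 at TP1.

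Over all ends in runs the median log2 fold change at TP2 was 0.15 in RF1, 0.06 in RF2, -0.27 in RF3, 0.13 in RF4 and -0.09 in RF5, and at TP1 it was -0.17, -0.04, 0.13, -0.12 and 0.19. Without the 3 libraries it was 0.21, 0.08, -0.29, 0.11 and -0.11 at TP2. Single ends had 0.09, 0.04, -0.15, 0.05 and 0.00 at TP2 and -0.02, -0.03, 0.07, -0.19 and 0.08 at TP1. Other gene ends had 0.08, 0.03, -0.15, 0.05 and -0.01 at TP2 and -0.03, -0.02, 0.08, -0.13 and 0.08 at TP1. Single Zfp ends therefore followed gene ends in general. Run ends lay further from 0, in RF1, RF3, RF4 and RF5 at TP2 and mainly in RF1 and RF5 at TP1.

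The distance was largest on chromosome 7, which holds 8 of the runs with 102 end peaks. Of these, 92 (90.2%) depended on RF at TP2 and 100 (98.0%) at TP1. Their medians were 0.25, 0.12, -0.42, 0.27 and -0.20 in RF1 to RF5 at TP2 and -0.38, -0.06, 0.22, -0.05 and 0.26 at TP1. Without the 3 libraries the medians at TP2 were 0.37, 0.16, -0.46, 0.21 and -0.25, and those of other gene ends there 0.30, 0.11, -0.40, 0.19 and -0.22. With all libraries, RF3 was below the average of the remaining RFs at 102 of the 102 at TP2. The 177 run ends on other chromosomes depended on RF in 41.8% and 71.8% of cases, and their medians were -0.17 in RF3 at TP2 and -0.06 in RF1, -0.15 in RF4 and 0.15 in RF5 at TP1. DARs between pairs of RFs were 75 of the 102 at TP2 (73.5%), against 7.91% of the run ends elsewhere. The 1478 ends of other genes on chromosome 7 behaved like the run ends there, with 78.0% and 94.5% RF-dependent, 60.3% DARs at TP2, and medians of 0.22, 0.08, -0.36, 0.24 and -0.18 at TP2 and -0.32, -0.06, 0.22, -0.04 and 0.21 at TP1. Run ends and other gene ends of chromosome 7 thus moved alike.

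**Figure D2:**
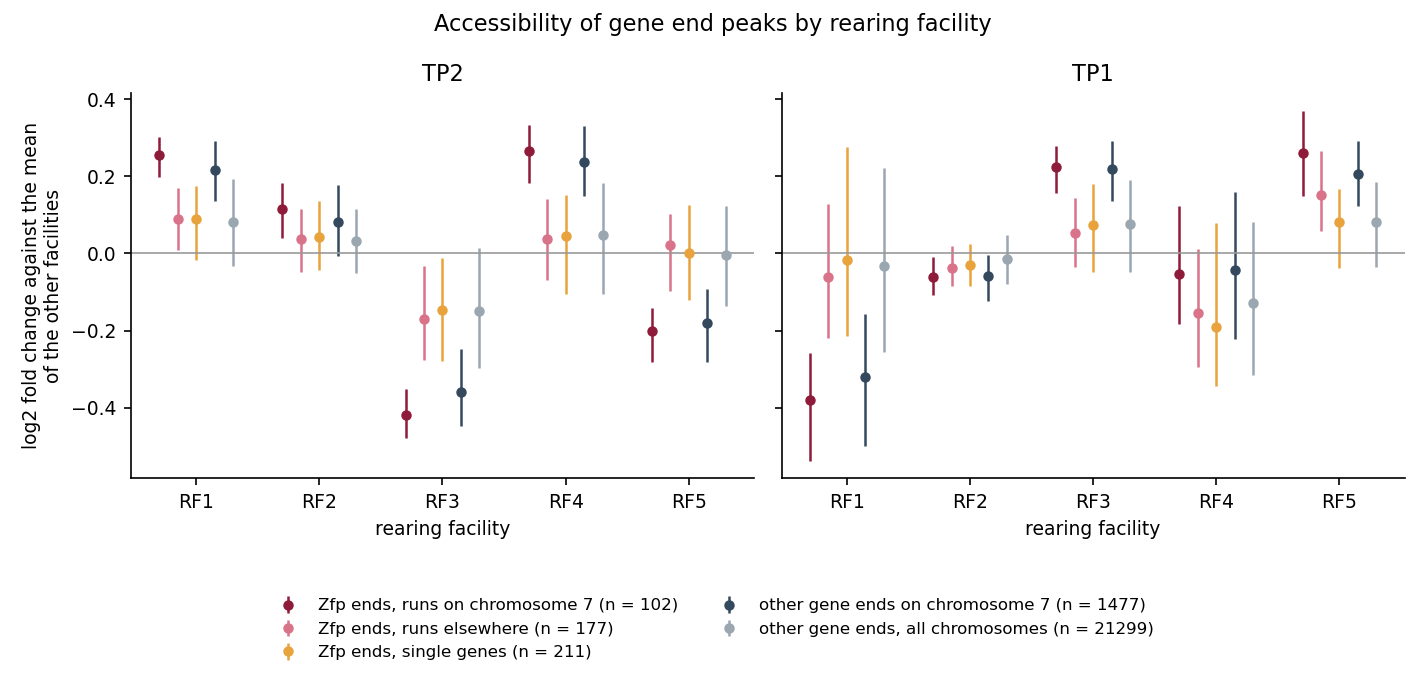
Log2 fold change of each RF against the average of the remaining RFs, at TP2 and TP1, for gene end peaks (points are medians, bars reach from the lower to the upper quartile). Run ends on chromosome 7 (102) lie with the other gene ends of that chromosome, at -0.42 and -0.36 in RF3 at TP2, and single Zfp ends (211) lie with gene ends of all chromosomes, both at -0.15.

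To set each peak against its surroundings, the fit was repeated with the counts of the other peaks within 1 Mb as the scale of each library. RF dependence at TP2 was then called at 123 members (11%), against 9.14% of all peaks, and at TP1 at 715 (63.9%), against 56.4%. On chromosome 7, 5 of the 102 run ends (4.90%) were still called at TP2 and 84 (82.4%) at TP1, and the medians of the run ends as a whole were 0.00 in RF1 and 0.02 in RF3 at TP2. At TP1 the medians of the run ends on chromosome 7 were -0.10 in RF1, -0.01 in RF3 and 0.04 in RF5 on this scale, in place of -0.38, 0.22 and 0.26. In RF4 the sign changed, with 0.08 in place of -0.05. RF4 at TP1 then had 45 members as higher DARs and 7 as lower ones, in place of 5 and 28. The sizes of the differences were thus mostly shared with the surrounding peaks at TP2, and at TP1 in RF1, RF3 and RF5. Most calls nevertheless stood at TP1. This scaling itself moved the median of all peaks by -0.09 in RF1 and 0.11 in RF4 at TP1.

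Run by run, the median of the end peaks in RF3 at TP2 was below 0 in 30 of 33 runs, between -0.49 and 0.06, and the 8 runs on chromosome 7 lay between -0.49 and -0.32. In RF1 at TP2 the medians ran between -0.07 and 0.31 and were below 0 in 3 runs, and at TP1 they ran between -0.54 and 0.29 and were below 0 in 21, with all 8 chromosome 7 runs between -0.54 and -0.28. The medians of RF5 at TP1 were below 0 in 2 runs. Runs with many end peaks differed from each other. The 14 genes of chromosome 7 between 24081877 and 25227876 (Zfp180 to Zfp526) had 21 end peaks, of which 19 depended on RF at TP2 and 21 at TP1, with medians of -0.44 in RF3 at TP2 and -0.49 in RF1 at TP1. The 23 genes of chromosome 17 between 21008941 and 23599755 (Zfp160 to Zfp13) also had 21 end peaks, 10 and 20 of them RF-dependent, with medians of -0.25 and -0.18. The 15 genes of chromosome 7 between 29768552 and 30169775 (Zfp84 to Zfp146) had 18, of which 17 depended on RF at each TP, with medians of -0.40 and -0.39. The 24 genes of chromosome 13 between 66670274 and 67827000 (Zfp640 to Zfp273) had 18 end peaks, of which 0 depended on RF at TP2 and 6 at TP1, with medians of 0.00 and 0.07. The median levels of the end peaks of these runs were 14.4, 5.64, 15 and 9.60 CPM in the order given.

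**Figure D3:**
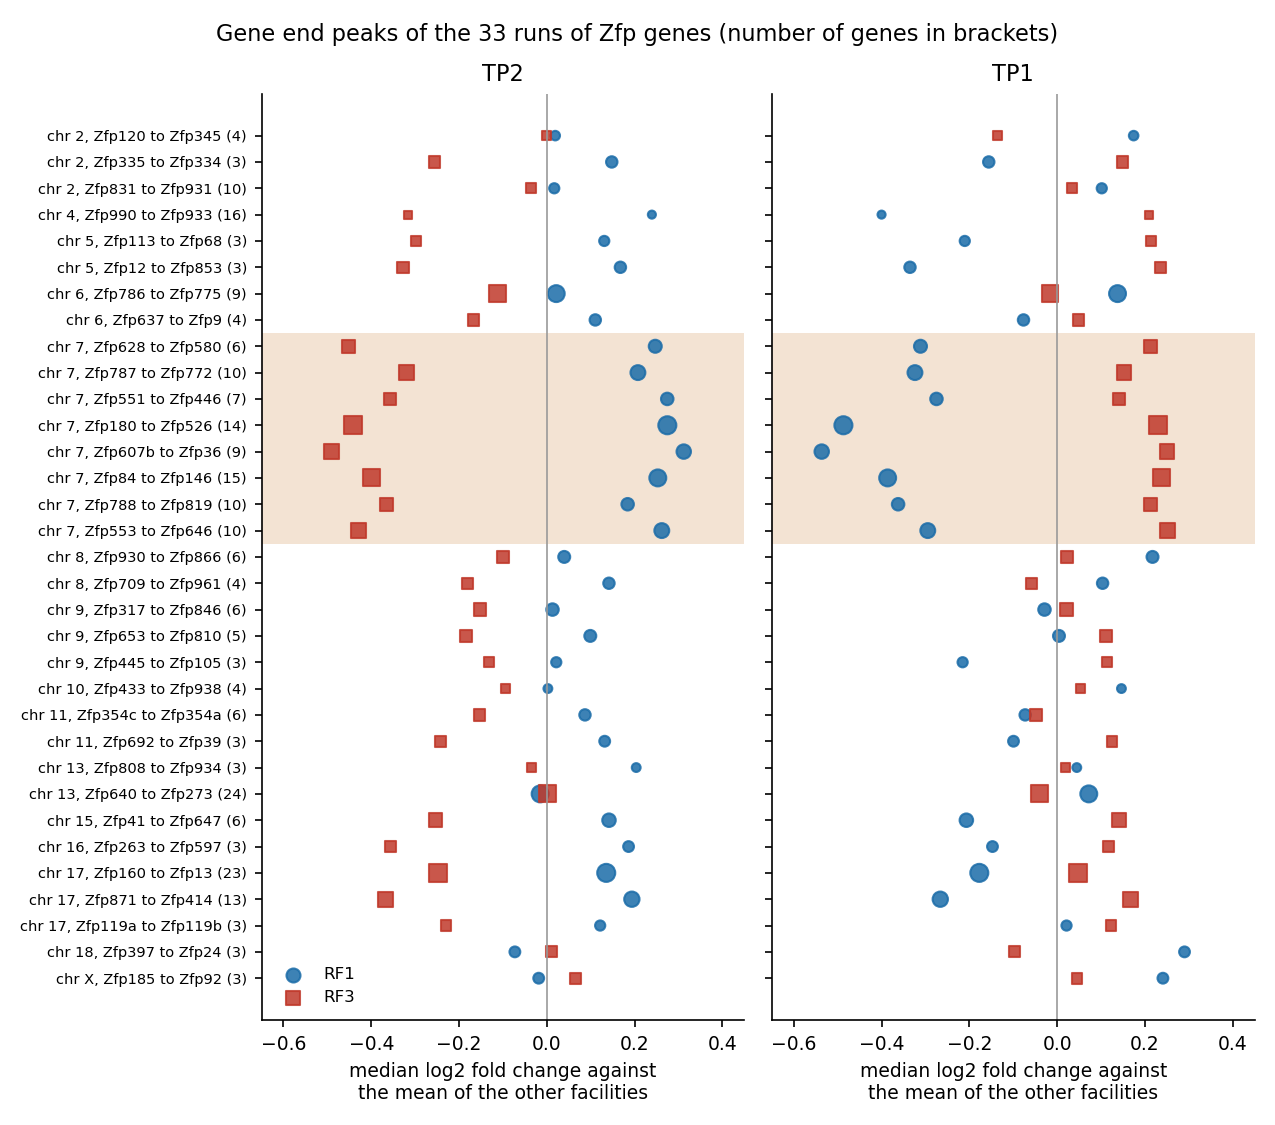
Median log2 fold change of the end peaks of each of the 33 runs of Zfp genes, RF1 (circles) and RF3 (squares) against the average of the remaining RFs, at TP2 and TP1, with runs ordered along the genome, marker size by number of end peaks, and chromosome 7 shaded. In the shaded runs RF3 lies between -0.49 and -0.32 at TP2 and RF1 between -0.54 and -0.28 at TP1, while at TP2 RF1 lies above RF3 there.

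Individual end peaks with the widest spread between RFs at TP2 all lay on chromosome 7. At the shared end of Zfp574 and Grik5, a kainate receptor subunit (chr7:25072641-25074247), RF3 libraries had 18.4, 19.8, 16.6, 20.2 and 19 CPM, against 22.6, 32.6 and 39.2 CPM as the lowest, median and highest of the other 20. No RF3 library overlapped the others, and accessibility was lower in RF3 by a log2 fold change of -0.69 ± 0.07 (SE, n = 5 against 20, edgeR adjusted p = 9.05e-11). With the regional scale it was -0.23 (edgeR adjusted p = 0.000949). The start of Zfp719 (chr7:43578882-43581044), whose upstream letters hold ACTTCCG, had 15.8, 16.8, 15.8, 18.1 and 15.9 CPM in RF3, against 18.2, 26 and 37.2 CPM in the others. Again no library overlapped, with a log2 fold change of -0.58 ± 0.06 (edgeR adjusted p = 1.55e-10). Zfp114 (chr7:24174472-24176229), with 4.45, 3.66, 3.88, 4.12 and 3.80 CPM in RF3 and 4.02, 5.99 and 8.96 CPM in the others, overlapped slightly (-0.55 ± 0.10, edgeR adjusted p = 2.32e-05).

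Zfp36 encodes tristetraprolin, which binds AU-rich messenger RNAs and speeds their decay. Its listed start (28379228, - strand) lay under a minor peak. A larger peak began within 2 kb upstream and did not cover that start. The minor one (chr7:28379047-28379488) had 1.47, 1.86, 1.90, 2.68 and 1.02 CPM in RF3, against 1.92, 3.17 and 4.38 CPM in the others, with overlap (-0.75 ± 0.15, edgeR adjusted p = 5.29e-05). The larger one (chr7:28380730-28383697, at an end of Med29, a Mediator subunit) had 17.2, 14.8, 14.9, 14.1 and 15 CPM in RF3, against 17, 24 and 28.5 CPM. One RF3 library lay within the range of the others there, and accessibility was lower in RF3 by -0.58 ± 0.06 (edgeR adjusted p = 8.96e-11). Zfp541, a meiotic gene of the testis (chr7:16060979-16062550; -0.50 ± 0.14, edgeR adjusted p = 0.00455), passed narrowly in RF3. Zfp592 (chr7:81042488-81044022) fell narrowly below the others in RF5 (-0.51 ± 0.13, edgeR adjusted p = 0.00574).

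Ends higher than the others at TP2 were few. Zfp976 (chr7:42642336-42642931) had 4.66, 4.11, 1.17, 3.50 and 2.86 CPM in RF1, against 1.58, 2.36 and 3.59 CPM in the others. RF1 replicate 3 was the lowest of all, and 2 RF1 libraries lay above every library of the other RFs (0.60 ± 0.14, edgeR adjusted p = 0.00148). Without the 3 libraries set apart above the log2 fold change was 0.89. Zfp607a (chr7:27859364-27861758) was higher in RF4 by 0.51 ± 0.11 (edgeR adjusted p = 0.000729), or 0.43 without the 3 libraries, which is less than asked of a DAR. With the regional scale none of Zfp36 (both peaks), Zfp976, Zfp607a, Zfp114, Zfp592, Zfp719 and Zfp541 kept its call. The larger Zfp36 peak was then at -0.14 in RF3 (edgeR adjusted p = 0.112).

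At TP1 the end peaks with the widest spread included several single genes at which RF1 lay above the others. Zfp521, a factor that promotes early neural differentiation, had an end peak (chr18:13971915-13974070) of 17.2, 15, 13.6, 15.5 and 19.8 CPM in RF1, against 4.69, 8.42 and 11 CPM in the others. The groups did not overlap, and RF1 was higher by 0.97 ± 0.07 (edgeR adjusted p = 6.52e-18), or 0.47 with the regional scale. RF4 was at the low end, with 6.97, 6.38, 6.51, 7.25 and 4.69 CPM (-0.72 ± 0.08, edgeR adjusted p = 5.74e-11).

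Zfp804a, the mouse counterpart of the schizophrenia risk gene ZNF804A (chr2:82051770-82054839), had 43.5, 38.6, 34.4, 40.6 and 45.1 CPM in RF1, against 20, 23.7 and 29.8 CPM in the others (0.76 ± 0.05, edgeR adjusted p = 2.95e-19). Zfp292, linked in humans to intellectual disability (chr4:34881648-34883878), had 36.6, 41.8, 34.3, 40.7 and 45.5 CPM in RF1, against 19.6, 24.6 and 32.8 CPM (0.71 ± 0.05, edgeR adjusted p = 7.09e-19). Neither gene's RF1 libraries overlapped the others, and with the regional scale the log2 fold changes were 0.31 and 0.40. Zfp184 (chr13:21944664-21945838), which stands in the histone gene region, had 23, 24.7, 22.4, 25.7 and 32.9 CPM in RF1, against 11.5, 15.1 and 20.6 CPM (0.74 ± 0.05, edgeR adjusted p = 3.12e-17). Its groups did not overlap either, but with the regional scale its log2 fold change was 0.04 and the call was lost.

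RF4 stood at the low end of the same genes at TP1. The end of Zfp24, a factor needed for myelination by oligodendrocytes (chr18:24020095-24021596), had 31.3, 31.6, 29.8, 33.2 and 31.5 CPM in RF4, against 36.5, 42.7 and 68.8 CPM in the others, without overlap (-0.55 ± 0.05, edgeR adjusted p = 1.21e-13). RF1 had 53.3, 63.2, 55.8, 62.0 and 68.8 CPM there, above the others' 29.8, 40.1 and 48.2 CPM (0.64 ± 0.04, edgeR adjusted p = 2.84e-18).

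Ends on chromosome 7 moved the other way in RF1 at TP1. Zfp260, a factor of the heart (chr7:30108318-30109404), had 1.78, 2.23, 2.16, 1.69 and 1.85 CPM in RF1, against 2.08, 3.40 and 4.42 CPM in the others (-0.72 ± 0.11, edgeR adjusted p = 7.31e-08), with overlap of 2 RF1 libraries. Zfp607a was lower in RF1 as well (-0.73 ± 0.09, edgeR adjusted p = 4.05e-10). At further ends of that chromosome RF5 was higher. Zfp976 had 4.48, 4.88, 4.80, 5.01 and 4.09 CPM in RF5, against 1.98, 2.86 and 3.72 CPM in the others (0.73 ± 0.09, edgeR adjusted p = 1.37e-08). Zfp551 (chr7:12422221-12423240) had 4.4, 4.73, 3.68, 4.19 and 3.72 CPM, against 1.56, 2.74 and 3.41 CPM (0.68 ± 0.09, edgeR adjusted p = 7.22e-08). Neither overlapped. Zfp114 had 7.13, 8.64, 8.18, 10.5 and 8.00 CPM in RF5, against 3.13, 5.90 and 7.25 CPM in the others (0.61 ± 0.07, edgeR adjusted p = 1.97e-09), and 3.13, 4.53, 5.22, 4.65 and 3.69 CPM in RF1, whose difference from the others was -0.64 ± 0.08 (edgeR adjusted p = 1.05e-09).

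**Figure D4:**
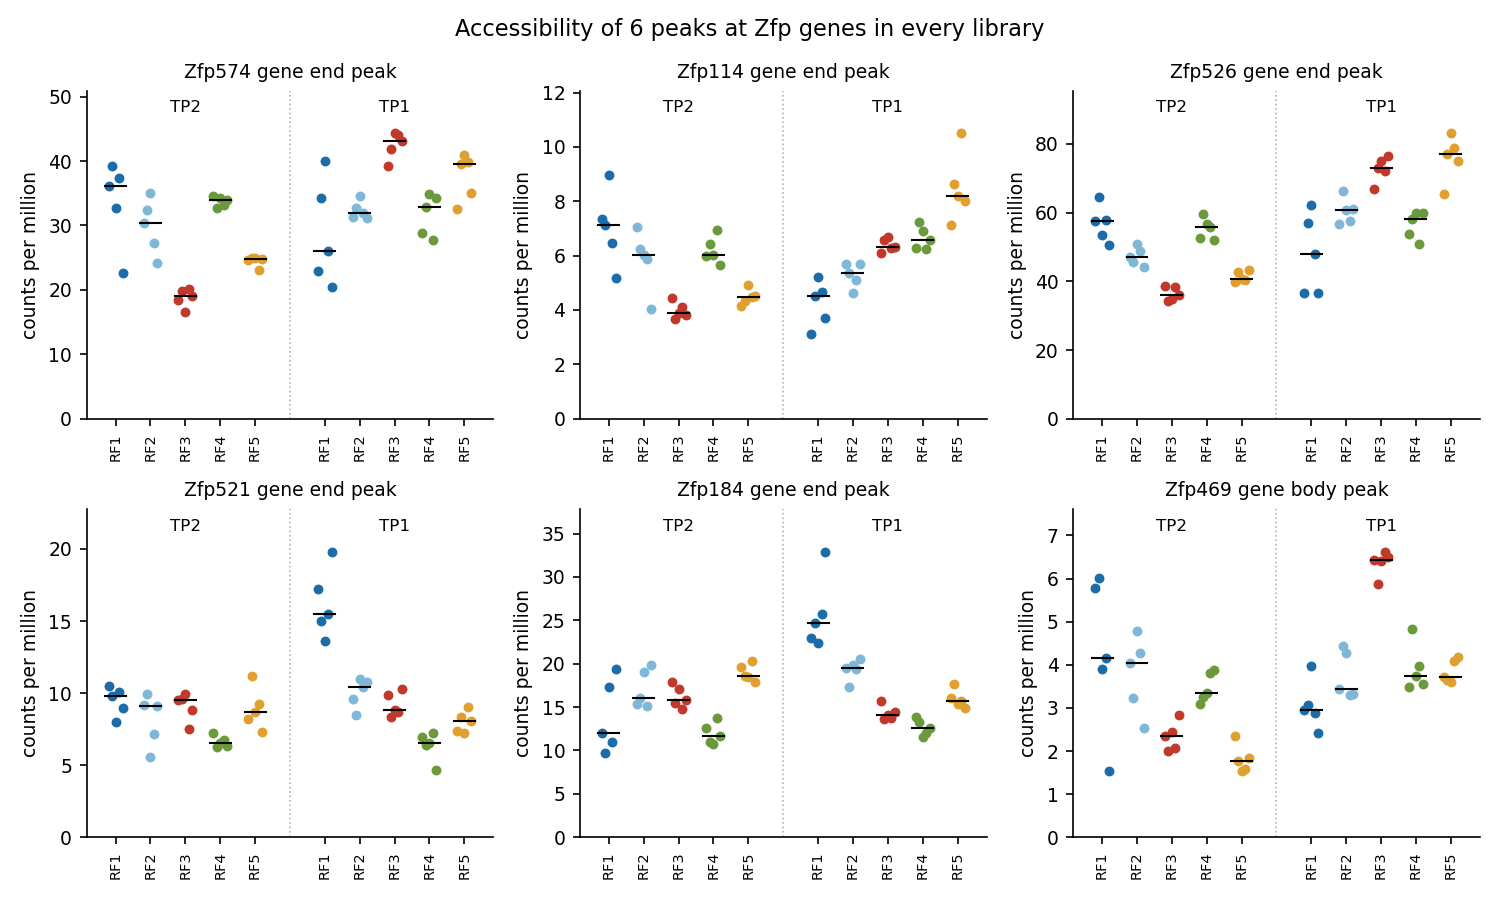
Accessibility in CPM of 6 peaks at Zfp genes in every library, by RF at TP2 and TP1 (points are libraries, bars are medians of 5). At TP2 the RF3 libraries have the lowest medians at the ends of Zfp574, Zfp114 and Zfp526, and at TP1 the RF1 libraries lie highest at the ends of Zfp521 and Zfp184 and the RF3 libraries highest in the body of Zfp469.

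Among genes with many body peaks, Zfp469, whose human counterpart is linked to brittle cornea, had 10 of its 27 body peaks dependent on RF at TP2 and 26 at TP1, and 12 were lower DARs in RF1 at TP1 (median -0.47). One of them (chr8:122224076-122225653) had 6.42, 5.87, 6.41, 6.62 and 6.51 CPM in RF3 at TP1, against 2.42, 3.62 and 4.84 CPM in the others. These did not overlap (0.81 ± 0.08, edgeR adjusted p = 1.73e-11; 0.64 with the regional scale). At TP2 the same peak was lowest in RF5, with 2.34, 1.76, 1.53, 1.58 and 1.84 CPM against 1.54, 3.30 and 6.02 CPM (-0.89 ± 0.17, edgeR adjusted p = 0.000398), and the lowest of the others was RF1 replicate 5.

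The 27 body peaks of Zfp536 on chromosome 7 depended on RF in 17 cases at TP2 and 21 at TP1, with RF1 medians of 0.38 at TP2 (5 higher DARs) and -0.33 at TP1 (3 lower). Its widest (chr7:37613375-37615781) had 6.87, 6.88, 3.51, 5.77 and 2.59 CPM in RF1 at TP2, against 1.84, 2.86 and 4.01 CPM in the others. Replicates 3 and 5 overlapped the others and the remaining RF1 libraries did not (0.86 ± 0.13, edgeR adjusted p = 9.55e-06), and without the 3 libraries the log2 fold change was 1.2. In Zfp385b, with 41 body peaks, 1 depended on RF at TP2 and 13 at TP1.

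A body peak of Zfp521 (chr18:13809299-13811560) was higher in RF3 at TP2, with 8.90, 8.58, 9.07, 8.12 and 8.45 CPM against 3.67, 5.60 and 7.62 CPM in the others, without overlap (0.61 ± 0.08, edgeR adjusted p = 4.06e-08; 0.46 with the regional scale). At TP1 it was higher in RF1 (0.71 ± 0.08, edgeR adjusted p = 2.2e-11), as was the end peak of that gene. In the body of Zfp13 (chr17:23575809-23577391) RF3 libraries had 1.97, 1.86, 2.12, 2.50 and 2.73 CPM at TP2, against 2.39, 3.89 and 5.50 CPM, with overlap (-0.68 ± 0.14, edgeR adjusted p = 0.000143). The regional scale ended that call.

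At TP1, a body peak of Zfp568, which represses a placental transcript of Igf2 (chr7:29992803-29995157), had 1.94, 2.3, 3.16, 1.98 and 1.3 CPM in RF1, against 2.59, 3.90 and 5.13 CPM, with overlap of 1 RF1 library (-0.85 ± 0.11, edgeR adjusted p = 5.39e-09). A body peak of Zfp804a (chr2:82080069-82081283) had 4.44, 3.10, 3.06, 4.21 and 3.77 CPM, against 1.03, 2.14 and 2.94 CPM, without overlap (0.80 ± 0.11, edgeR adjusted p = 5.27e-09). With the regional scale this body peak of Zfp804a was at 0.26 and no longer called. RF1 was thus low at the first, on chromosome 7, and high at the other, the same directions as at the ends. A peak over a further listed start inside Zfp800 (chr6:28260862-28262551) had 18.8, 22, 21, 21.7 and 19.9 CPM in RF4, against 25.2, 30.8 and 47.9 CPM, without overlap (-0.64 ± 0.05, edgeR adjusted p = 2.81e-14), and was higher in RF1 (0.65 ± 0.05, edgeR adjusted p = 5.58e-17).

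Zfp genes of known function were followed by role, each by its end peak of highest counts. The 6 silencers of retroviral elements and imprinted loci (Zfp57 and Zfp445, which keep imprinted marks, Zfp568, Zfp809, which silences murine leukaemia virus, Zfp819 and Zfp932) had end peaks of 5.22 to 20.1 CPM, and 6 of 6 depended on RF at both TPs. For this and the following lists, counts of RF dependence are to be set beside these shares. They are 66.4% of Zfp starts and 55.0% of other gene ends at TP2, and 87.2% and 80.3% at TP1. Counts in 1 direction by the false discovery rate have no such share here. At any false discovery rate, RF4 at TP1 was below 0 at 82.0% of Zfp starts and 65.0% of other gene ends. RF1 at TP1 was below 0 at 59.9% and 53.4%, and RF3 at TP2 at 88.2% and 72.8%. At TP1 RF1 was lower at 5 of the 6 by the false discovery rate (median -0.31) with 1 DAR. That was Zfp819, which represses retroelements in pluripotent cells (chr7:43606454-43608078), with 3.14, 4.69, 3.88, 3.49 and 2.61 CPM in RF1, against 4.5, 6.02 and 8.22 CPM (-0.79 ± 0.09, edgeR adjusted p = 2.57e-11). Zfp932 (chr5:109996147-109997572) had 7.48, 8.59, 7.58, 9.22 and 7.61 CPM in RF5 at TP1, against 3.62, 5.15 and 7.56 CPM (0.65 ± 0.07, edgeR adjusted p = 6.27e-10), with overlap of 1 RF5 library only. At TP2 RF3 was lower at 2 of the 6 (median -0.33), with no DAR. These were Zfp568 (-0.47) and Zfp932 (-0.40). With the regional scale RF3 at TP2 was at -0.06 and -0.12 at these, and at 0.01, 0.06, 0.11 and 0.11 at Zfp57, Zfp445, Zfp809 and Zfp819, none of them called. At TP1 the call of RF1 stood at Zfp819 on that scale (-0.49) and was lost at the other 4, and that of RF5 at Zfp932 stood (0.49).

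Of the CCCH RNA-binding genes, Zfp36l2 (chr17:84185941-84189694, end shared with Thada) had 16.7, 20.1, 20, 19.7 and 18.6 CPM in RF3 at TP1, against 9.04, 11.7 and 14.8 CPM in the others. These did not overlap (0.70 ± 0.05, edgeR adjusted p = 4.91e-16), and at TP2 RF5 was lower by -0.54 ± 0.09 (edgeR adjusted p = 3.72e-05). Zfp36l1 had 24.4, 26.1, 25.1, 25.6 and 24.8 CPM in RF1 at TP1, against 15.1, 19.6 and 22.1 CPM, with no overlap and a log2 fold change of 0.39 ± 0.05 that is below the size asked of a DAR.

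Of 10 genes with roles in the nervous system, 9 had an end peak (not Zfp462) and 9 of 9 depended on RF at both TPs. At TP1 RF4 was lower at 9 of the 9 by the false discovery rate (median -0.44, 1 DAR) and RF1 was higher at 6 (median 0.43, 3 DARs, namely Zfp521, Zfp804a and Zfp292). A negative value in RF4 at TP1 was common to Zfp starts (82.0%) and other gene ends (65.0%). At TP2 their medians were 0.12 in RF1 and -0.11 in RF3. Zfp335, mutated in human microcephaly (chr2:164910330-164912716), had 35.7, 37.8, 37.2, 38.3 and 36.5 CPM in RF3 at TP2, against 43.1, 47.5 and 54.5 CPM, without overlap (-0.39 ± 0.05, edgeR adjusted p = 7.09e-10). With the regional scale it was at -0.09 in RF3 (edgeR adjusted p = 0.190).

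The 10 widely expressed Zfp genes depended on RF in 9 cases at TP2 and 10 at TP1. RF4 was lower at 9 of the 10 at TP1 by the false discovery rate (median -0.31, 2 DARs) and RF3 at 5 at TP2. Zfp281, a regulator of pluripotency (chr1:136624131-136626237), had 30.4, 31.3, 31.7, 34.8 and 30.6 CPM in RF4 at TP1, against 39.6, 45.5 and 63.1 CPM (-0.55 ± 0.05, edgeR adjusted p = 1.29e-12). Zfp91, a ubiquitin ligase (chr19:12794654-12797281, end shared with Lpxn), had 59.8, 61.4, 59.4, 56.5 and 60.0 CPM, against 72.7, 82.4 and 103 CPM (-0.50 ± 0.04, edgeR adjusted p = 1.22e-13). Neither overlapped. Zfp143, whose own product reads the ACTACAATT site (chr7:110060863-110062278), had 52.7, 52.5, 50.4, 53.7 and 52.4 CPM in RF3 at TP2, against 57.5, 65.9 and 78.8 CPM, without overlap (-0.35 ± 0.04, edgeR adjusted p = 1.71e-09). It had 59.9, 62.3, 59.3, 56.3 and 64.8 CPM in RF4 at TP1, against 70.1, 83.8 and 100 CPM, also without overlap (-0.45 ± 0.05, edgeR adjusted p = 1.95e-10). Both differences are smaller than a DAR. With the regional scale that of RF3 at TP2 was -0.07 (edgeR adjusted p = 0.278) and that of RF4 at TP1 was -0.50 (edgeR adjusted p = 3.49e-42).

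Peaks over promoters with ACTACAATT, of which 5 are printed above, depended on RF at TP2 in 8 of 10 cases. The exceptions were Zfp454 (edgeR adjusted p = 0.385) and Zfp58 (edgeR adjusted p = 0.936). At that TP 66.4% of all Zfp starts were called. So were 90.2% of run ends on chromosome 7, where Zfp180, Zfp128, Zfp93, Zfp108 and Zfp111 lie. In RF3 at TP2 the log2 fold changes of the chromosome 7 members Zfp180, Zfp128, Zfp93 and Zfp108 were -0.46, -0.38, -0.33 and -0.32, and none was a DAR. The single gene Zfp1 on chromosome 8 had -0.15 ± 0.05 (edgeR adjusted p = 0.0124).

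Base composition went with the RF4 difference at TP1. Over 292 Zfp start peaks the Spearman correlation of the promoter's percent G and C with the log2 fold change of RF4 at TP1 was -0.47, and over 10538 start peaks of other genes it was -0.34. The 16 Zfp starts with a lower DAR in RF4 had a median of 64.3% G and C, against 55.3% over all Zfp starts. For RF1 at TP1 the correlation was 0.21 at Zfp starts and 0.08 at others, and for RF3 at TP2 -0.19 and -0.16. The points share libraries, and the part of base composition in the differences was not tested.

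The differences between RFs were not alike at both TPs. The interaction of RF and TP was significant (edgeR, false discovery rate under 0.01) at 676 members (60.4%), against 54.4% of all peaks. These included 365 gene ends (74.5%, other gene ends 74.4%) and 311 body peaks (49.4%, other gene bodies 46.7%), and 102 of 102 run ends on chromosome 7, where 92.9% of other gene ends were called. Without the 3 libraries it was called at 753 members (67.3%), against 61.1% of all peaks. Between RF1 and RF3, 128 members were higher in RF1 and 9 lower at TP2 (4.54% and 5.59% of all peaks), whereas at TP1 39 were higher and 165 lower (10.6% and 9.5%). At gene ends these were 84 higher and 0 lower at TP2 and 14 higher and 78 lower at TP1. Other gene ends leaned the same way, with 2261 higher and 223 lower at TP2 and 1493 higher and 2618 lower at TP1. Without the 3 libraries 239 members were higher in RF1 and 40 lower at TP2 (9.73% and 12.2% of all peaks). Of the members, 64 were DARs between RF1 and RF3 at both TPs, and 64 of these 64 had opposite signs. Among all peaks 6221 of 6236 did, so the change of sign was general.

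The member with the lowest interaction p-value was the end of Zfp526, shared with Dedd2 (chr7:25218746-25221902, edgeR adjusted p = 7.86e-20), whose letters are printed above. At TP2 it had 38.5, 34.2, 34.9, 38.3 and 36.0 CPM in RF3, against 39.7, 50.7 and 64.5 CPM in the others, with no overlap (-0.46 ± 0.05). At TP1 it had 36.5, 57.0, 62.3, 47.9 and 36.7 CPM in RF1, against 50.9, 65.9 and 83.1 CPM, with RF1 replicates 2 and 3 among the others (-0.46 ± 0.06). RF1 over RF3 was 0.65 ± 0.06 at TP2 (0.72 without the 3 libraries) and -0.60 ± 0.07 at TP1. Next were Zfp174 (chr16:3846424-3848077, edgeR adjusted p = 1.77e-17), a body peak of Zfp668 (chr7:127866084-127870202, edgeR adjusted p = 2.13e-17), Zfp78 (chr7:6362095-6363529, edgeR adjusted p = 4.19e-17) and Zfp583 (chr7:6329939-6332216, edgeR adjusted p = 6.41e-17).

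Zfp174, off chromosome 7, had 19.4, 22.8, 18.7, 19.3 and 13.9 CPM in RF1 at TP2, against 11.4, 14.2 and 18.5 CPM in the others, and 13.3, 14.4, 18.7, 13.2 and 13 CPM in RF1 at TP1, against 15.7, 19.5 and 27.5 CPM. RF1 was thus mostly above the others at TP2, by 0.35 (0.47 without the 3 libraries), and mostly below them at TP1, by -0.46, with 1 RF1 library among the others at each TP. Zfp583 had 13.9, 12.2, 13.8, 12.9 and 12.8 CPM in RF3 at TP2, against 13.7, 18.9 and 23.2 CPM, with slight overlap (-0.50 ± 0.07, edgeR adjusted p = 2.16e-08).

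**Figure D5:**
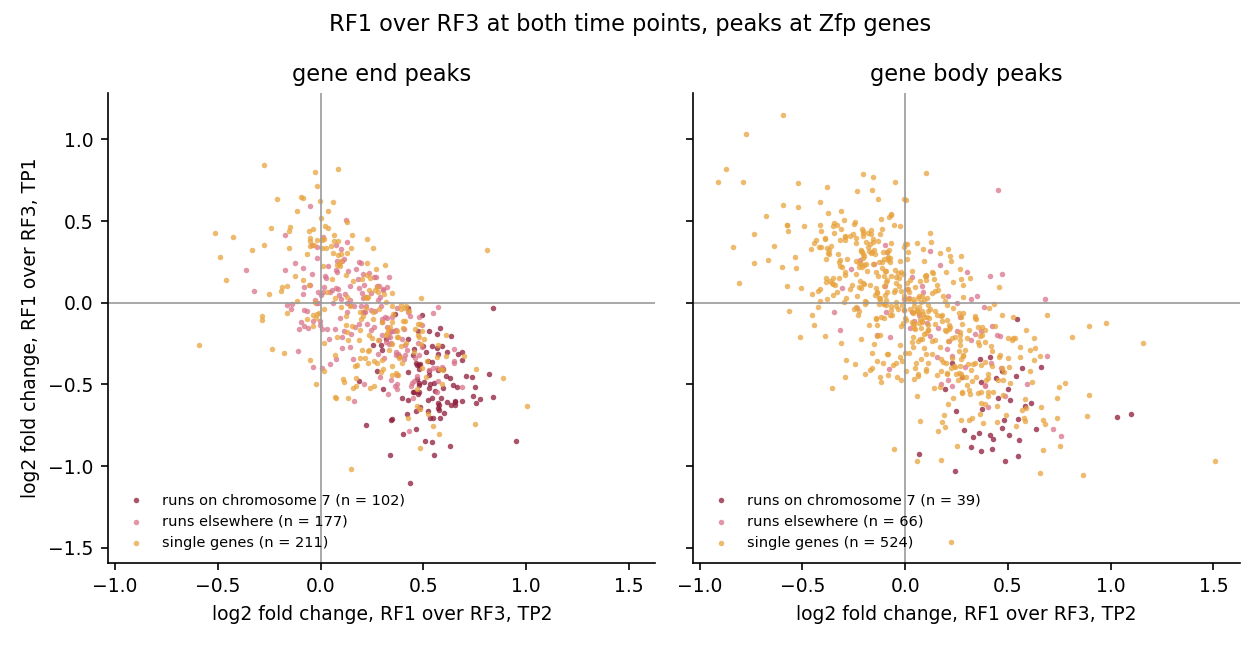
RF1 over RF3 as a log2 fold change, with TP2 on the horizontal axis and TP1 on the vertical axis, for end and body peaks of Zfp genes (points are peaks, coloured by runs on chromosome 7, runs elsewhere and single genes). Most run ends on chromosome 7 (102) lie to the lower right, above 0 at TP2 and below 0 at TP1, and the 64 members that were DARs at both TPs have opposite signs.

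Across all RFs, few members differed between the TPs themselves. TP2 over TP1 gave 11 higher and 13 lower members, against 1.8% and 0.995% of all peaks, with 1 higher and 7 lower ends and 10 higher and 6 lower bodies. The median over Zfp ends was -0.13, as at other gene ends.

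The genes of the silencing machinery that KRAB zinc finger proteins recruit (TRIM28, SETDB1, HP1, DNA methyltransferase, NuRD and HUSH subunits among them) were followed as a further list. An end peak was found for 31 genes, of which 24 depended on RF at TP2 and 26 at TP1, where 55.0% and 80.3% of other gene ends did. Each gene on the list stood by a single end peak, whereas the other gene ends pool every peak at either end. The peaks compared here and below are therefore unlike. Among Zfp ends, the RF4 median at TP1 was -0.20 at starts and 0.15 at other ends. That of RF3 at TP2 was -0.26 and -0.17. At TP2 none was a DAR in any RF against the remaining ones, and the median was -0.28 in RF3 (other gene ends -0.15). Trim28, which lies on chromosome 7, was lower there by -0.47 ± 0.05 (edgeR adjusted p = 2.65e-11), smaller than a DAR and close to the run ends of that chromosome. With the regional scale Trim28 was at -0.06 in RF3. At TP1 4 of the 31 were higher DARs in RF1, as were 1601 of 21300 other gene ends. These were Smarcad1, a chromatin remodeller (0.85 ± 0.05, edgeR adjusted p = 1.75e-20), Hdac2, a histone deacetylase (0.74 ± 0.05, edgeR adjusted p = 1.92e-19), Atrx, which deposits histone H3.3 (0.66 ± 0.05, edgeR adjusted p = 2.87e-16), and Cbx3, an HP1 protein (0.54 ± 0.04, edgeR adjusted p = 7.88e-17). With the regional scale they were at 0.40, 0.17, 0.13 and 0.46 in that order. Lower DARs in RF4 at TP1 were Hdac2, Cbx3 and Atrx (-0.59, -0.58 and -0.53), beside 1122 of the other gene ends, and the median in RF4 was -0.32 over the list and -0.13 over other gene ends. With the regional scale Hdac2, Cbx3 and Atrx were at -0.20, -0.55 and -0.18 in RF4.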

How the data were processed

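ATAC-seq libraries of sorted NeuN+ nuclei were made by the authors from 50 mice, 5 per RF and TP, in 5 sorting batches per TP with 1 mouse of each RF in each. Per the labels and the study's methods, reads were aligned to GRCm38 with Bowtie2, only unique alignments were kept, duplicates were marked with Picard 1.140, and peaks were called per library with MACS2 2.1.4, kept where at least 3 of 5 libraries of a group had them, and merged over the groups. The deposited count table holds raw read counts of the 144465 merged peaks in each library (a second table named as normalised holds the same values and was not used), and the deposited peak lists give positions and the number of groups with each peak. The files hold 0 columns that could not be assigned to a library.

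Peaks were placed by the RefSeq gene table (GRCm38.p6). Counts were tested with edgeR 4.0.16 (R 4.3.3, filterByExpr, TMM, robust quasi-likelihood) on all peaks of a TP. RF and replicate number were the terms, and p-values were adjusted by Benjamini-Hochberg over all peaks tested. The interaction and TP2 over TP1 came from 1 fit of all 50 libraries. SE is that of the log2 fold change, and CPM was scaled by TMM. The tests were tried on simulated counts first. Python 3.11.15 with pandas 2.3.3, scipy 1.17.1 and matplotlib 3.10.9 made the summaries.

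The members and the lists of roles and partners were chosen with earlier results of these data known. Named peaks are, at each TP, the 8 gene end peaks and 4 body peaks with the widest span of log2 fold changes among those RF-dependent and at 2 CPM or more (1 per gene), the 5 peaks of lowest interaction p, the main end peak of each role gene, and each run. Other genes and peaks named were chosen after their values were seen. Libraries were held to be within sampling noise where the variance of their difference over abundant peaks was at most 1.02 times that of counting. The labels give a replicate number and no sorting batch. Each sorting batch held 1 mouse of every RF, and the replicate number divides the libraries in the same way. It was therefore taken to stand for the sorting batch, which the study does not state, and was kept as a block. Libraries of the same number deviated from their group means with a mean correlation of 0.00 at TP2 (1 of 50 pairs over 0.1) and 0.06 at TP1 (13 of 50).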

Additional observations from a re-analysis of the deposited data

Results flagged for a closer look

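In 15 peaks named above, 150 groups of 5 libraries were searched for a library far from its group, and 5 were found, where chance flags about 1 in 20 groups. The library of RF5 replicate 4 at TP2 had 23.1 CPM at the end of Zfp574. RF5 replicate 3 at TP2, one of the libraries close to another group, had 3.59 CPM at the end of Zfp976. RF3 replicate 2 at TP1 had 5.87 CPM at the body peak of Zfp469. At the end of Zfp174, RF4 replicate 4 had 16.2 CPM at TP2 and RF1 replicate 3 had 18.7 CPM at TP1. The search flagged no library by its share of counts at run or single ends (0 of 20 groups). At run ends at TP2, RF1 replicate 5 nevertheless had 0.394%, against 0.430 to 0.447% in the other RF1 libraries. RF2 replicate 5 had 0.396%, against 0.420 to 0.431% in the other RF2 libraries.

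The differences between RFs were not the same at TP2 and TP1 at 5 members with the lowest interaction p-values over all Zfp peaks. The edgeR adjusted p was 7.86e-20 at the end of Zfp526, 1.77e-17 at that of Zfp174, 2.13e-17 at the body peak of Zfp668, 4.19e-17 at the end of Zfp78 and 6.41e-17 at that of Zfp583. TP and sequencing batch cannot be told apart here.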

How the results depend on the processing

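Counts and medians over the members kept their size under DESeq2 1.42.0, DESeq2 size factors, no filter on low counts, runs defined within 0.5 Mb, and without the 3 Zfp36 family genes. None of the 24 values of widest-span peaks changed direction under these settings. Scaling to the peaks within 1 Mb changed most. At TP2 RF dependence was called at 123 members (460 as reported), 34 run ends and 44 single ends. DARs between RFs were 29 at TP2 and 281 at TP1. DARs at TP2 were 6 in RF1, 0 in RF3, 1 in RF4 and 5 in RF5, and at TP1 30 in RF1, 52 in RF4 and 9 in RF5. Those of RF4 at TP1 were 45 higher and 7 lower, whereas 5 were higher and 28 lower as reported. Medians of run ends at TP2 were 0.0016, -0.0266, 0.0156, -0.0092 and 0.0208 in RF1 to RF5, and at TP1 -0.0014 in RF2, -0.0117 in RF3, 0.0263 in RF4 and 0.0395 in RF5. The interaction was called at 380 members and TP2 over TP1 at 11. By construction this setting removes what neighbouring peaks share.

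Summing libraries within sampling noise gave 242 RF-dependent members at TP2, 106 run ends, 63 single ends, DARs of 0 in RF2, 4 in RF4 and 0 in RF5 at TP2 and 9 in RF3 at TP1, and a run median of -0.2501 in RF3 at TP2, with fewer samples. A loess offset gave run medians of -0.1937 in RF3 at TP2 and 0.075 in RF3 and 0.0065 in RF4 at TP1, and 14 DARs in RF4 at TP1. A threshold of 0.05 gave 19 DARs in RF4 at TP2. A window of 1 kb made 38.9% of the members gene ends, in place of 43.8%. Without RF1 replicates 3 and 5 and RF2 replicate 5 at TP2, 412 members were DARs between RFs, with 91 in RF1, 9 in RF2, 74 in RF3, 7 in RF4 and 37 in RF5, and the run median of RF3 was -0.293. The fit without the replicate block gave 1 DAR in RF2 at TP2 in place of 2, and left the other 29 counts and medians within 1.5 times or 1 SD and the calls of the 24 widest-span values as they were.

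Leaving out each replicate number in turn gave 287 to 547 RF-dependent members at TP2 and 606 to 726 at TP1, with 126 to 183 and 209 to 230 run ends and 78 to 132 and 153 to 173 single ends. DARs between RFs were 176 to 356 and 387 to 493. DARs at TP2 were 2 to 64 in RF1, 0 to 8 in RF2, 24 to 73 in RF3, 7 to 15 in RF4 and 1 to 33 in RF5, and at TP1 98 to 235, 0 to 1, 14 to 21, 29 to 39 and 29 to 39. Run medians at TP2 were 0.1322 to 0.1861, 0.0586 to 0.0789, -0.2939 to -0.2532, 0.1182 to 0.1401 and -0.1077 to -0.0741 in RF1 to RF5, and at TP1 -0.2417 to -0.1493, -0.0601 to -0.0238, 0.1077 to 0.1469, -0.143 to -0.0887 and 0.1735 to 0.208. The interaction was called at 550 to 674 members and TP2 over TP1 at 19 to 43. The calls of Zfp976, Zfp607a, Zfp592, Zfp541 and the Zfp469 body peak at TP2 were each lost without some replicate. Where no value bears on it, the cause of a change was not tested. Total counts were mostly lower at TP2, so that differences at low peaks may be missed there.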
